A study of Homo sapiens with 10 samples.

Results

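The comparison described here asked whether the difference between SAMHD1 knock-out clone A1 and wild-type (WT) spheroids was the same in experiments 10 and 11 as in experiments 15 and 16. It used 8 of the 10 RNA-seq libraries of the series, chosen by their labels: WT and clone A1 in each of the 4 experiments, which gave 2 libraries for every combination of genotype and experiment pair. The other 2 libraries came from clone A2 in experiments 15 and 16, and only their levels are given beside those of clone A1. The cells were labelled T47D, a luminal breast cancer line, and were grown as spheroids, which are cell aggregates formed in low-adhesion wells, with no treatment. The knock-out cells had been transfected with a CRISPR-Cas9 plasmid aimed at exon 5 of SAMHD1, so clone A1 is 1 clone of edited cells, and a clone can differ from its parent line in more than the edited gene. WT and clone A1 spheroids of one number were made in the same numbered experiment, but the labels do not say what else distinguished experiments 10 and 11 from 15 and 16, so culture date, passage, RNA extraction and sequencing run cannot be told apart. No label states that libraries came from separate cultures beyond the experiment number, and the p-values measure the spread between these libraries.

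SAMHD1 is a triphosphohydrolase that breaks deoxynucleoside triphosphates down to deoxynucleosides and inorganic triphosphate. It limits reverse transcription of viruses such as HIV in myeloid cells, it acts at stalled replication forks, and its inherited loss causes Aicardi-Goutières syndrome, a disease with raised type I interferon signaling. Exon 5 encodes part of the HD domain, which holds the catalytic centre. The coding exon that the editing aimed at is shown because SAMHD1 was the one gene targeted by design. It is exon 5 of 16 of the MANE Select transcript of SAMHD1 in GENCODE and spans 116 bases at chr20:36930760-36930875 (GRCh38, minus strand). The position of the guide within it is not given in the sources used here, so no base is in capitals.
SAMHD1 exon 5: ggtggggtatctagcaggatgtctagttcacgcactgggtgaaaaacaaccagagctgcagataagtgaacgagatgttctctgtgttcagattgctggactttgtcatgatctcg

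Promoter sequences are shown for 4 genes, chosen after their values were seen: GHR, whose A1 effect appeared as a decrease; LTBR, whose effect appeared as an increase; C6orf132, whose effect vanished; and HES5, whose effect reversed. Each is the 250 bases before the start that the RefSeq promoter table (GRCh38.p14) gives for the gene. For LTBR that start lies within the annotated span of the gene, chr12:6375160-6391566. Capitals mark matches on either strand to TGACTCA (AP-1), CACCTG (an E-box bound by Snail factors), TGGGAA (RBPJ) and GGGCGG (the GC box). Overlapping matches were merged.
GHR: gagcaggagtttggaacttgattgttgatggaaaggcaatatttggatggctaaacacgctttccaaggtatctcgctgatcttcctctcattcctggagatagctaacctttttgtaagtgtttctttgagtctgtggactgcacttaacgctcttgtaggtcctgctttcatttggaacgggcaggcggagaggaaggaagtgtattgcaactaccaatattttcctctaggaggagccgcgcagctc
LTBR: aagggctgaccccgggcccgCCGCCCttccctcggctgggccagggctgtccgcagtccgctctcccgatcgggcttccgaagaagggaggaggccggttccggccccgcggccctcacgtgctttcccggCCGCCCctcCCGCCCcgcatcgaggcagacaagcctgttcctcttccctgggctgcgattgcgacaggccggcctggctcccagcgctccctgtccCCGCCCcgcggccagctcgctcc
C6orf132: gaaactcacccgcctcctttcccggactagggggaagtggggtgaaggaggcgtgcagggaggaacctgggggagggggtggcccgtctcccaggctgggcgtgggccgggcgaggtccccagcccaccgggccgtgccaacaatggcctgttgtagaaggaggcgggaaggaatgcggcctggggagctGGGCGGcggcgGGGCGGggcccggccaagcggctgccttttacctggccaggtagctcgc
HES5: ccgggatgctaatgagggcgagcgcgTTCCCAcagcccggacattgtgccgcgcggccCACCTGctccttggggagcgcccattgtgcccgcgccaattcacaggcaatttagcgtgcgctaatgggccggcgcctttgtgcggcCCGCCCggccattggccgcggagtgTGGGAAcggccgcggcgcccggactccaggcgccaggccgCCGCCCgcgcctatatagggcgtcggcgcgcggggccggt
They lie at chr5:42423189-42423438 (plus strand) for GHR, chr12:6383912-6384161 (plus) for LTBR, chr6:42142621-42142870 (minus) for C6orf132 and chr1:2530264-2530513 (minus) for HES5. HES5, a target gene of the Notch pathway, held 2 matches to the letters of RBPJ, the DNA-binding partner of Notch, and 36 CpG dinucleotides. GHR held none of the 4 motifs and 7 CpG dinucleotides. Of the 11366 listed genes with a promoter in the table, 67.2% held a GC box match, 19.4% the RBPJ letters, 15.7% the E-box and 2.34% the AP-1 letters. A match describes the letters of a window and does not show a bound site.

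The libraries held between 40077369 and 51311482 reads assigned to 13920 genes. Levels are given in CPM, read counts scaled by library size and TMM factors over the 8 libraries; those of clone A2 were scaled with all 10. The luminal markers of the labelled line were mixed, and all 6 listed basal or mesenchymal markers were present. KRT19 and SPDEF were not among the listed genes, ESR1 lay between 0.181 and 1.58 CPM, EPCAM between 0.345 and 1.68 CPM and CDH1 between 0.679 and 2.15 CPM. PGR at 16.8 to 20.6 CPM, GATA3 at 17.7 to 24.5 CPM, FOXA1 at 14.0 to 26.6 CPM, XBP1 at 44.9 to 64.9 CPM and KRT18 at 36.1 to 59.7 CPM were present. KRT8 lay between 4.01 and 9.004 CPM. Of 33 estrogen receptor targets 26 were listed, and TFF1, TFF3 and AREG were among those not listed. The mesenchymal genes VIM and CDH2 reached 1206 to 1504 CPM and 117 to 158 CPM, and the basal genes KRT5, KRT14 and TP63 were not listed. FN1 lay between 161 and 213 CPM and ZEB1 between 57.1 and 68.8 CPM. ZEB2 lay between 25.7 and 31.9 CPM and TWIST1 between 15.9 and 25.1 CPM. The 9 listed of 11 luminal epithelial markers summed to 153 to 174 CPM and the 6 listed of 9 basal or mesenchymal markers to 1628 to 1927 CPM, so the cells are called here the cells labelled T47D. Whether they are T47D or another line was not tested. Blood immune markers summed to 3.08 to 3.97 CPM, with PTPRC, CD3D, CD3E, CD4, MS4A1, LYZ and ITGAM not listed. In bulk RNA, fewer cells of a type and less RNA per cell cannot be told apart. Mitochondrial transcripts took 7.79% to 8.48% of reads in experiments 10 and 11 and 9.92% to 13.9% in experiments 15 and 16, with the highest share in clone A1 of experiment 15. WT of experiments 10 and 11 were the least alike of the replicates, with a root mean square difference over genes of 0.30 on the log2 CPM scale, against 0.24 to 0.26 for the other 3 replicate pairs.

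SAMHD1 itself was lower in clone A1 in both experiment pairs, and the decrease was larger in the later pair. Its level was 53.5, 55.2, 49.4 and 56.0 CPM in WT of experiments 10, 11, 15 and 16. Clone A1 held 22.4 and 22.8 CPM in experiments 10 and 11 and 6.40 and 6.12 CPM in experiments 15 and 16, and clone A2 gave 23.6 and 20.2 CPM. Every clone A1 library lay below every WT library, the later clone A1 libraries lay below the earlier ones, and the WT libraries of the pairs overlapped. Clone A1 therefore held 0.415 of the WT level in experiments 10 and 11 and 0.119 in experiments 15 and 16 by the fitted folds. The difference between the A1 effects, called the shift below, was -1.81 ± 0.13 (log2 ± SE; edgeR quasi-likelihood interaction test with Benjamini-Hochberg adjustment over all genes, adjusted p = 1.22e-06). SAMHD1 kept this call under all 17 alternatives of the processing, with shifts between -1.89 and -1.71.

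Across all genes, the A1 effect differed between the pairs for 266 of 13920 genes (1.91%), with 175 shifted upward (1.26%) and 91 downward (0.654%) by the edgeR interaction test at an adjusted p under 0.05. An upward shift means that A1 minus WT was higher in experiments 15 and 16. The number of genes called for A1 against WT was 20 in experiments 10 and 11 (0.144%; 3 higher, 0.0216%, and 17 lower, 0.122%) and 1016 in experiments 15 and 16 (7.3%; 484 higher, 3.48%, and 532 lower, 3.82%). At an unadjusted p under 0.05 these counts were 1994 (14.3%), 1343 (9.65%) and 2986 (21.5%). With a replicate block that pairs WT and clone A1 by experiment number, edgeR called 1081 genes for the interaction, 298 in experiments 10 and 11 and 2207 in experiments 15 and 16, and all 266 genes were among the 1081. The counts also rested on single libraries: leaving out each library in turn gave 70 to 1163 genes for the interaction, the lowest without clone A1 of experiment 10 and the highest without WT of experiment 10. Without WT of experiment 10 the genes called in experiments 10 and 11 numbered 1590. The same omission left 263 of the 266 genes called, all in the same direction, while the omission of WT of experiment 11 gave 559 genes and the omission of 1 of the other 6 libraries 70 to 112.

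The 266 genes fell into 5 kinds by their A1 effects in the separate pairs. The effect had appeared, called in experiments 15 and 16 but not in 10 and 11, for 230 genes (86.5%), of which 145 shifted upward and 85 downward. An appeared effect need not have been absent early, since 125 of the 145 and 64 of the 85 had opposite signs in the pairs, and 43 and 20 had an early unadjusted p under 0.05. It had vanished for 6 genes, all lower in clone A1 in experiments 10 and 11, and reversed for 3 genes, all from lower to higher. It had changed in size for 2 genes, SAMHD1 and CHODL, and passed the test in neither pair for 25 genes, whose effects had opposite signs in the pairs in every case. Without WT of experiment 10, 521 effects had appeared, 410 vanished and 93 reversed, so the split between kinds depends on that library, and without clone A1 of experiment 15 only 58 had appeared. With the replicate block, 785 effects had appeared, 74 vanished, 34 reversed, 6 changed in size and 182 passed in neither pair. The genes with an appeared effect had a median effect of -0.14 in the early pair and 0.60 in the late pair where they shifted upward, and of 0.11 and -0.56 where they shifted downward. The differences within experiments 10 and 11 did not overlap those within experiments 15 and 16 for 51.5% of all genes and for all 266, so this property alone sets few genes apart.

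**Figure D1:**
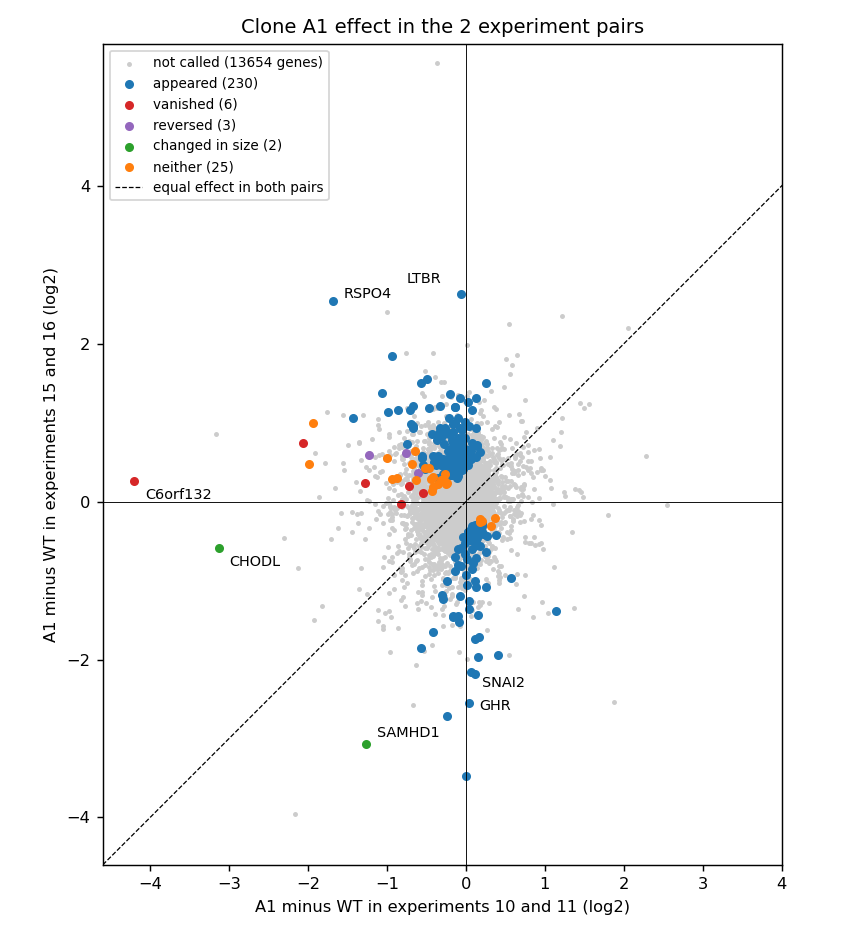
Each dot is a gene, placed by its log2 difference A1 minus WT in experiments 10 and 11 (horizontal axis) and in experiments 15 and 16 (vertical axis), with colours for the 5 kinds of change and grey for the 13654 genes not called. The 230 genes with an appeared effect form a vertical band whose medians lie near 0 on the horizontal axis, with RSPO4 at -1.68 and ZNF660 at 1.14 among those farther out, whereas C6orf132 and CHODL lie far to the left and SAMHD1 lies low and to the left.

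The shift came mostly from clone A1. Between the pairs, 123 of the 266 genes moved in clone A1 alone, 143 moved in both genotypes and 0 moved in WT alone, by the edgeR tests of the later against the earlier libraries of each genotype at an adjusted p under 0.05. In these tests 2035 genes (14.6%) were called in WT and 5199 (37.3%) in clone A1, counts that ranged from 612 to 3713 and from 3487 to 6360 when single libraries were left out, the highest in WT without WT of experiment 10 and the lowest without WT of experiment 16. Of the 143 genes that moved in both, 141 moved in the same direction, and the change was larger in clone A1 in 264 of the 266. The genes with an upward shift had a median change of 1.26 in clone A1 and 0.39 in WT, and those with a downward shift of -0.94 and -0.25 (log2). The rule that chose these genes used the same libraries, so these medians are a description.

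**Figure D2:**
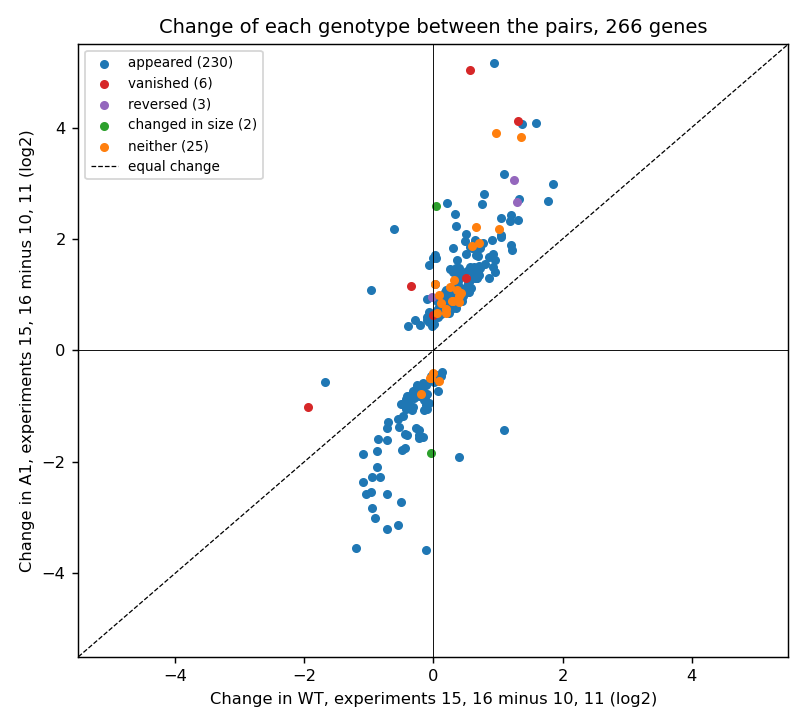
The change from experiments 10 and 11 to experiments 15 and 16 is shown for the 266 genes, in WT on the horizontal axis and in clone A1 on the vertical axis (log2), with colours for the kinds of change. Most dots lie on the same side of 0 in both genotypes, with 29 on opposite sides, and farther from 0 in clone A1, except for FOS, at -1.93 in WT and -1.02 in clone A1, and EGR1, at -1.68 and -0.57.

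The effects that appeared as a decrease included those on a hormone receptor and on regulators of cell state. GHR, the growth hormone receptor, was 12.9, 10.1, 7.30 and 8.28 CPM in WT of experiments 10, 11, 15 and 16, and 11.5, 12.01, 1.43 and 1.23 CPM in clone A1. The genotypes overlapped in experiments 10 and 11 and were far apart in experiments 15 and 16, where clone A2, at 0.381 and 0.293 CPM, lay lower still. The GHR shift was -2.59 ± 0.22 (edgeR adjusted p = 6.63e-06), from an effect of 0.04 to one of -2.55. SNAI2, which encodes the Snail-family repressor Slug and was named after its values were seen, had the smallest adjusted p of all genes, 1.03e-07 by edgeR. Its level was 43.8 and 42.6 CPM in WT and 42.9 and 47.3 CPM in clone A1 of experiments 10 and 11. In experiments 15 and 16 it was 31.5 and 29.6 CPM in WT, 7.10 and 6.53 CPM in clone A1 and 12.7 CPM in both clone A2 libraries. The SNAI2 shift was -2.23 ± 0.13, and the groups overlapped only in the early pair. ESRP2, a splicing regulator of epithelial cells that was also named after its values were seen, went the same way. It was 12.9, 10.5, 6.70 and 5.86 CPM in WT and 12.7, 13.3, 1.81 and 1.39 CPM in clone A1, a shift of -2.12 ± 0.22 (edgeR adjusted p = 7.03e-05). So a gene associated with mesenchymal cells and one associated with epithelial cells shifted downward together, while 0 of the 9 listed luminal and 0 of the 6 listed basal or mesenchymal markers passed the interaction test.

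TMEM132B, a gene of a family of single-pass membrane proteins, was 21.1, 18.7, 8.597 and 8.72 CPM in WT and 26.9, 26.1, 2.00 and 2.51 CPM in clone A1. Clone A1 was thus above WT in both early libraries and below it in both late ones, and the shift was -2.35 ± 0.17 (edgeR adjusted p = 1.22e-06). Only the later effect, -1.94, passed the test. GNAO1, a G protein alpha subunit abundant in neurons, shifted by -1.58 ± 0.17 and CPS1, the mitochondrial enzyme that starts the urea cycle, by -1.29 ± 0.14 (edgeR adjusted p = 9.81e-05 and 8.32e-05); both were picked out after the values were seen. CPS1 separated the clones: it was 9.46 and 9.39 CPM in clone A1 of experiments 15 and 16, 26.0 and 25.8 CPM in WT and 23.7 and 24.7 CPM in clone A2. ZNF660 and BHLHE22, at levels of at most 2.46 CPM, shifted by -2.53 ± 0.45 and -2.49 ± 0.49 (edgeR adjusted p = 0.00932 and 0.0156). Both lost the call when some single libraries were left out. ZNF660 had adjusted p = 0.0567 when clone A1 of experiment 11 was omitted and 0.0533 when that of experiment 16 was, and BHLHE22 had adjusted p = 0.0559 to 0.121 by edgeR without 1 of the 4 clone A1 libraries or WT of experiment 16.

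Among effects that appeared as an increase, LTBR, the lymphotoxin beta receptor that feeds the noncanonical NF-kB pathway, was clear of the WT range. It was 0.646, 1.15, 2.20 and 2.46 CPM in WT and 0.659, 1.08, 15.2 and 13.9 CPM in clone A1. The genotypes overlapped in experiments 10 and 11, and in experiments 15 and 16 clone A1 was 6.22 times the WT level by the fitted fold. The LTBR shift was 2.70 ± 0.36 (edgeR adjusted p = 0.000622). Clone A2, at 0.852 and 1.27 CPM, lay below WT of the same experiments. RSPO4, a secreted activator of Wnt signaling, was 0.0824 and 0.0431 CPM in clone A1 of experiments 10 and 11 and 2.59 and 2.12 CPM in experiments 15 and 16, against 0.182 to 0.406 CPM in WT. Its shift of 4.22 ± 0.68 (edgeR adjusted p = 0.00405) rests on early clone A1 libraries with as few as 2 reads, so its size is poorly known. Clone A2 held 0.0449 and 0.0586 CPM of RSPO4, in the range of the early clone A1 libraries.

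PLAAT3, a phospholipase and acyltransferase, was 2.37, 2.85, 3.12 and 2.94 CPM in WT and 1.24, 1.27, 8.87 and 6.87 CPM in clone A1. Clone A1 was below all WT libraries in the early pair and above them all in the late pair, although the early effect of -1.06 had an adjusted p of 0.0705 by edgeR. The PLAAT3 shift was 2.44 ± 0.28 (edgeR adjusted p = 0.000153), and clone A2 lay with late clone A1 at 8.32 and 6.87 CPM. KIF1A, a kinesin motor that carries synaptic vesicle precursors along axons, was 33.3, 30.5, 44.9 and 45.6 CPM in WT and 24.0, 26.3, 79.8 and 86.4 CPM in clone A1. Its shift, picked out after the values were seen, was 1.22 ± 0.12 (edgeR adjusted p = 4.12e-05). DLGAP1, a scaffold protein of the postsynaptic density, shifted by 2.49 ± 0.47 (edgeR adjusted p = 0.0148), but the call was lost without any 1 of the 4 clone A1 libraries or without WT of experiment 15 or 16, with adjusted p = 0.0539 to 0.119. Without WT of experiment 10 its shift was 1.61. ZNF253, one of many similar zinc finger genes whose reads may be shared, shifted by 2.12 ± 0.40 (edgeR adjusted p = 0.0117), and clone A2, at 0.673 and 0.390 CPM, lay below late WT at 1.12 and 1.08 CPM. Its call was lost without WT of experiment 16 or clone A1 of experiment 10, 11 or 16, with adjusted p = 0.0533 to 0.0673.

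**Figure D3:**
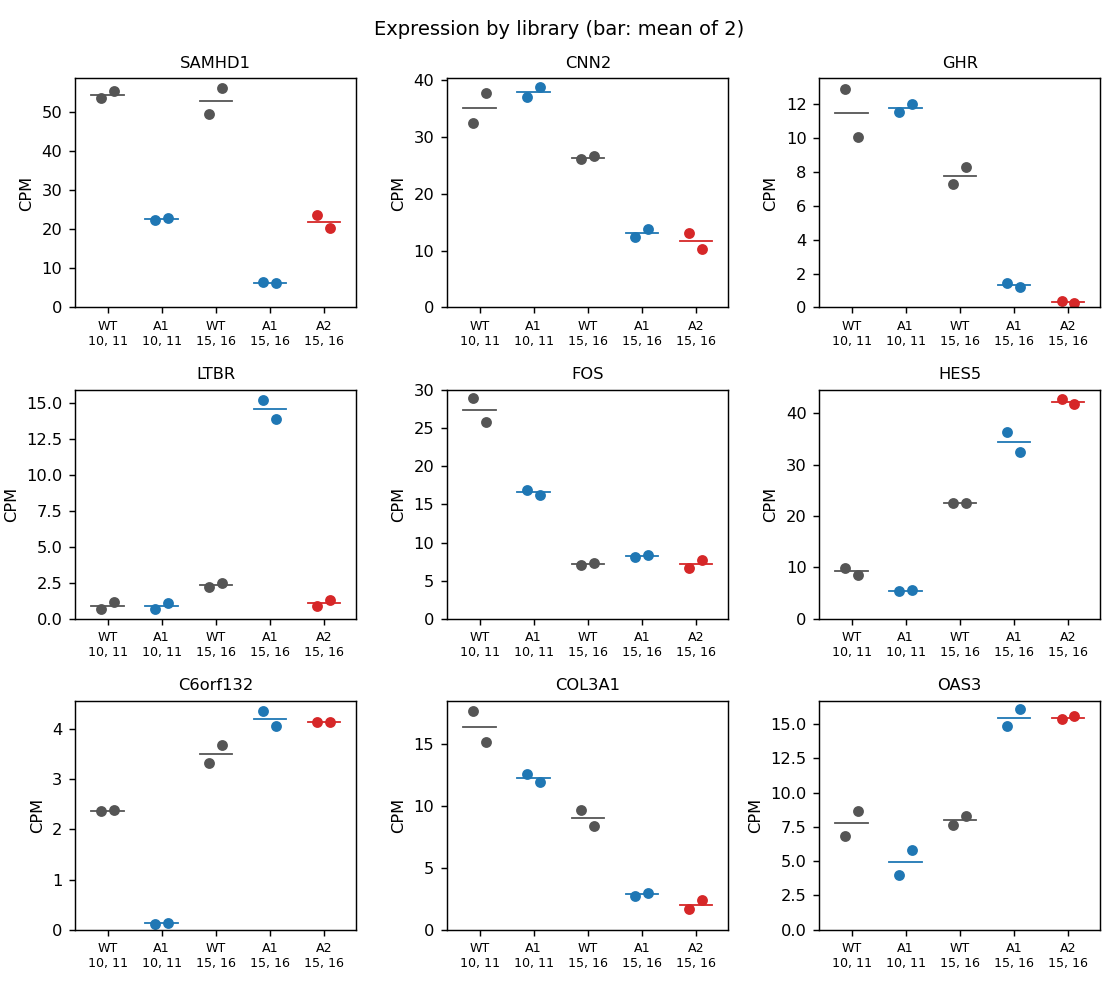
CPM of 9 genes in each library, by genotype and experiment pair, with dots for libraries and bars for the mean of 2. SAMHD1 falls in clone A1 in both pairs, CNN2, GHR and COL3A1 separate the genotypes most in experiments 15 and 16, C6orf132 and FOS separate them most in experiments 10 and 11, HES5 and OAS3 cross over, and LTBR is high only in late clone A1.

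The 6 genes whose effect vanished were lower in clone A1 than in WT in experiments 10 and 11 and did not pass the test in experiments 15 and 16. C6orf132, a protein-coding gene of unassigned function, was 2.37, 2.38, 3.32 and 3.67 CPM in WT and 0.124, 0.129, 4.36 and 4.07 CPM in clone A1. The early clone A1 libraries held 0.0543 of the WT level by the fitted fold and lay far below every other library, and clone A2 held 4.15 and 4.14 CPM. Its shift of 4.47 ± 0.36 was the largest among genes named by rule (edgeR adjusted p = 4.77e-06), and it rests on 6 reads or more per library. MSH5, which acts in meiotic recombination, was 7.41 and 9.30 CPM in early clone A1 against 19.1 and 21.3 CPM in early WT, and 20.8 and 16.5 CPM against 17.2 and 14.4 CPM later, a shift of 1.51 ± 0.19 (edgeR adjusted p = 0.000398). CSRP1, an actin-bundling LIM protein, was 13.2 and 16.02 CPM in early clone A1 against 25.7 and 25.8 CPM in early WT, and the late libraries overlapped between 34.8 and 37.1 CPM. The CSRP1 shift of 0.79 ± 0.13 (edgeR adjusted p = 0.00589) lost its call without clone A1 of experiment 10, with adjusted p = 0.0715. ZNF28, another zinc finger gene, was 2.18 and 1.45 CPM in early WT and 0.247 and 0.625 CPM in early clone A1, and 4.45 and 4.56 CPM in late WT and 8.14 and 7.01 CPM in late clone A1. It went from below WT to above it without overlap, with a late effect of 0.75 that just missed the threshold (edgeR adjusted p = 0.0543), and its shift was 2.81 ± 0.39 (edgeR adjusted p = 0.0012).

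The FOS effect vanished in another way, in that the WT level came down to that of clone A1. FOS encodes an AP-1 subunit that is induced within minutes of stimulation. It was 29.0 and 25.8 CPM in early WT and 17.0 and 16.2 CPM in early clone A1, and 7.05 and 7.27 CPM in late WT and 8.08 and 8.31 CPM in late clone A1. FOS fell between the pairs in both genotypes, by 1.93 in WT and by 1.02 in clone A1 (log2), and its shift was 0.92 ± 0.15 (edgeR adjusted p = 0.00399). EGR1, an immediate early transcription factor, behaved likewise in WT, at 76.1, 83.3, 23.7 and 25.9 CPM, and was 45.2, 63.1, 36.8 and 36.1 CPM in clone A1. The EGR1 effect went from -0.56 to 0.55, of which only the later passed the test, and its shift of 1.11 ± 0.17 (edgeR adjusted p = 0.00405) had adjusted p = 0.0605 without WT of experiment 11. Of the 28 AP-1 and immediate early genes, 2 shifted upward (FOS and EGR1) and 0 downward, against 1.26% and 0.654% of all genes, 21 of the estimates were positive, and the median shift was 0.22 against 0.00 over all genes. The list was chosen with earlier results of these data known, so these counts are a description.

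Reversal was found for 3 genes. RASGEF1A, a guanine nucleotide exchange factor for Ras proteins, was 6.44, 5.495, 14.3 and 14.1 CPM in WT and 2.86, 2.24, 22.6 and 20.2 CPM in clone A1. HES5, a Notch target gene that encodes a transcriptional repressor, was 9.82, 8.53, 22.4 and 22.6 CPM in WT and 5.33, 5.54, 36.3 and 32.5 CPM in clone A1. EEF1A2, the neuronal and muscle form of translation elongation factor 1 alpha, was 111, 104, 106 and 106 CPM in WT and 73.6, 68.1, 132.03 and 142 CPM in clone A1. In all 3, clone A1 lay below WT in the early pair and above it in the late pair with no overlap. Their shifts were 1.82 ± 0.19, 1.37 ± 0.15 and 0.97 ± 0.11 (edgeR adjusted p = 7.03e-05, 9.81e-05 and 9.81e-05), and each was called under all 17 alternatives. RASGEF1A and HES5 rose between the pairs in both genotypes, whereas EEF1A2 did so in clone A1 only, its WT change being -0.02. Clone A2 lay with late clone A1 for RASGEF1A (22.0 and 21.0 CPM) and above it for HES5 (42.7 and 41.7 CPM).

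CHODL, which encodes the membrane lectin chondrolectin, was the other gene whose effect changed in size, and was named after its values were seen. It was 6.33, 6.08, 7.02 and 5.72 CPM in WT and 0.618, 0.798, 4.13 and 4.36 CPM in clone A1. Clone A1 lay below WT in both pairs, with an effect of -3.13 early and -0.58 late, and the shift was 2.55 ± 0.26 (edgeR adjusted p = 7.03e-05). CHODL thus moved toward WT where SAMHD1 moved away from it.

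The 25 genes called for the shift but in neither pair had estimates of opposite sign in the pairs. ZNF285, PNMA8B, RGS3, SLC2A10 and FBXO27 had the largest upward shifts among those that reached a mean of 1 CPM in at least 1 group and did not overlap between the pairs, from 1.17 to 2.47. SLC2A10, a glucose transporter, was 3.58, 4.06, 6.97 and 5.57 CPM in WT and 1.67, 2.33, 7.96 and 7.29 CPM in clone A1. Clone A1 was thus lower early and higher late, though neither effect passed the test (edgeR adjusted p = 0.0792 and 0.358). MAP2K6, RHOBTB3, NUCKS1, TIPRL and RIPK4 shifted downward by smaller amounts, from -0.63 to -0.40. With regional offsets the shifts of NUCKS1 and TIPRL, both on chromosome 1, went from -0.45 to -0.21 and from -0.44 to -0.28. RHOBTB3 was 140, 138, 119 and 123 CPM in WT and 185, 176, 97.5 and 112 CPM in clone A1. All 10 of these genes lost the call in 3 to 8 of the 17 alternatives, and for SLC2A10 and RHOBTB3 the adjusted p by edgeR reached 0.167 and 0.0856 among them.

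The genes that the study had singled out on these libraries differed in whether they passed the interaction test. Differences between these genes were not tested. CNN2, the actin-binding protein calponin 2, was 32.5, 37.8, 26.1 and 26.6 CPM in WT and 37.0, 38.9, 12.5 and 13.9 CPM in clone A1. The genotypes overlapped in experiments 10 and 11 and did not in experiments 15 and 16, where clone A2 held 13.1 and 10.3 CPM. The CNN2 shift was -1.11 ± 0.13 (edgeR adjusted p = 0.000276). Of the 6 genes counted with IL-12 family signaling, CNN2 was the only one past the interaction test, all 6 estimates were negative with a median of -0.30 (that of ARF1 turned to 0.12 with regional offsets), and 4 were called lower in clone A1 in experiments 15 and 16 against 0 in experiments 10 and 11, where 3.82% and 0.122% of all genes were called lower. The list was picked from these samples, so it is no independent evidence of direction. TYK2, a Janus kinase, TCP1, a chaperonin subunit, GSTO1, a glutathione transferase, ARF1, a small GTPase, and RPLP0, a ribosomal stalk protein, had shifts of -0.26 ± 0.13, -0.35 ± 0.09, -0.35 ± 0.10, -0.18 ± 0.09 and -0.18 ± 0.09, with edgeR adjusted p between 0.0659 and 0.417. With the replicate block TCP1 and GSTO1 passed the test (edgeR adjusted p = 0.00162 and 0.00841), and without WT of experiment 11 the TYK2 shift was -0.45 (edgeR adjusted p = 0.00622). CXCL8, the neutrophil chemokine interleukin 8, was 1.98, 0.869, 2.27 and 2.07 CPM in WT and 1.09, 0.474, 4.81 and 3.17 CPM in clone A1. Its estimates were -0.85 early and 0.88 late, and neither these nor the shift of 1.73 ± 0.55 passed the test (edgeR adjusted p = 0.535, 0.164 and 0.148), although the CXCL8 shift passed with the replicate block (adjusted p = 0.00221). IL12A, the p35 subunit of interleukin 12, lay between 2.67 and 4.09 CPM in all 8 libraries with a shift of -0.08 ± 0.30 (edgeR adjusted p = 0.942).

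The pathways around SAMHD1 held 0 or 1 called gene each in the fit without the replicate block. These counts are to be read against the 1.91% called over all genes in that fit. The block called 1081 genes over all, and the lists were not counted with it. None of the 20 enzymes of the deoxynucleotide pool was called, with shifts between -0.51 and 0.16 and a smallest edgeR adjusted p of 0.504. None of 14 nucleic acid sensing genes was called either. Of 30 interferon-stimulated genes 1 was called, OAS3, an oligoadenylate synthetase that activates RNase L, with a median shift of 0.09 over the list. OAS3 was 6.85, 8.69, 7.65 and 8.30 CPM in WT and 4.01, 5.801, 14.9 and 16.1 CPM in clone A1, so clone A1 lay below WT in the early pair and above it in the late pair. Its shift was 1.62 ± 0.22 (edgeR adjusted p = 0.00101), and clone A2 held 15.3 and 15.6 CPM. Of 17 genes of MHC class I presentation 1 was called, HLA-B, with a shift of 0.48 ± 0.10 (edgeR adjusted p = 0.0257), and 12 of the 17 estimates were positive with a median of 0.22. HLA-B reads can be shared with other class I genes, and its call was lost without any 1 of the 4 clone A1 libraries or without WT of experiment 15 or 16, with adjusted p = 0.0533 to 0.212. LTBR was the one gene called of 22 in the NF-kB list, whose median shift was 0.20, and 0 of 20 genes of JAK-STAT signaling were called.

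Genes of fibroblasts, of synapses and of redox metabolism were also among those called. COL3A1, the fibrillar collagen of type III, was 17.7, 15.2, 9.67 and 8.39 CPM in WT and 12.6, 11.9, 2.74 and 2.97 CPM in clone A1, a shift of -1.23 ± 0.18 (edgeR adjusted p = 0.00184). Clone A1 lay below WT in each experiment, and the ratio of the genotypes went from 0.746 to 0.317 by the fitted folds. COL3A1 is also a fibroblast marker. COL1A1, the only other of the 6 fibroblast markers among the listed genes, had an upward estimate of 0.51 ± 0.21 that did not pass (edgeR adjusted p = 0.266), and the part of other cells in this result was not tested. Of 39 synaptic and neuronal genes 3 shifted upward and 2 downward, against 1.91% called over all genes, with a median of 0.11. This list was chosen with earlier results of these data known, so its count is a description. GRIA3, an AMPA receptor subunit, was 10.7, 8.75, 5.62 and 6.13 CPM in WT and 10.4, 10.6, 1.72 and 1.80 CPM in clone A1, a shift of -1.85 ± 0.20 (edgeR adjusted p = 0.0001), and CNTNAP2, an axonal adhesion protein, shifted by 0.75 ± 0.14, a call lost without clone A1 of experiment 10 or 16. MGST1, a membrane-bound glutathione transferase, was the one called of 26 genes of the glutathione and thioredoxin list (1.91% over all genes), with a shift of -1.39 ± 0.17 (edgeR adjusted p = 0.000317) from levels of 13.5 to 15.9 CPM in all early libraries to 4.95 and 5.12 CPM in late clone A1 against 11.97 and 13.8 CPM in late WT.

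The remaining lists also held few called genes in the fit without the replicate block, each read against the 1.91% called over all genes. SLC7A11, the cystine transporter, was called upward in the ATF4 and unfolded protein response list (1 of 29; 0.86 ± 0.17), ENO2, the neuronal enolase, in hypoxia and glycolysis (1 of 32; 0.96 ± 0.19), ITGA6 in the matrix and integrin list (1 of 33; 0.47 ± 0.12) and CXCL12 among estrogen receptor targets (1 of 26; 1.16 ± 0.26). ANXA3, an annexin, was the upward gene beside CNN2 in the actin, YAP and SRF list of 30 genes, at 1.48 ± 0.26. CENPF, a kinetochore protein, was called downward among 44 cell cycle genes (-0.41 ± 0.10), and RPL4 among 84 cytosolic ribosomal protein genes (-0.42 ± 0.10). These calls were lost in several of the 17 alternatives, in 9 for RPL4, 8 for CENPF, 7 for ENO2 and for CXCL12, 6 for ITGA6, 5 for SLC7A11 and 2 for ANXA3. With regional offsets the shifts of CENPF and RPL4 came to -0.17 and -0.22. None of 8 CCT chaperonin genes was called although all 8 estimates were negative (median -0.14), and none of 45 splicing factor genes although 40 were negative (median -0.09). The 13 mitochondrially encoded genes were not called either, with a median shift of 0.17. Their share of reads was highest in clone A1 of experiment 15, at 13.9%. It was 10.7% both in clone A1 of experiment 16 and in WT of experiment 15. Sterol synthesis (0 of 28), heat shock proteins (0 of 17), nuclear oxidative phosphorylation (0 of 79) and clustered protocadherins (0 of 33) held no called gene. Among 432 zinc finger genes 5 shifted upward and 3 downward, and in the growth factor list GHR was the one called of 22.

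**Figure D4:**
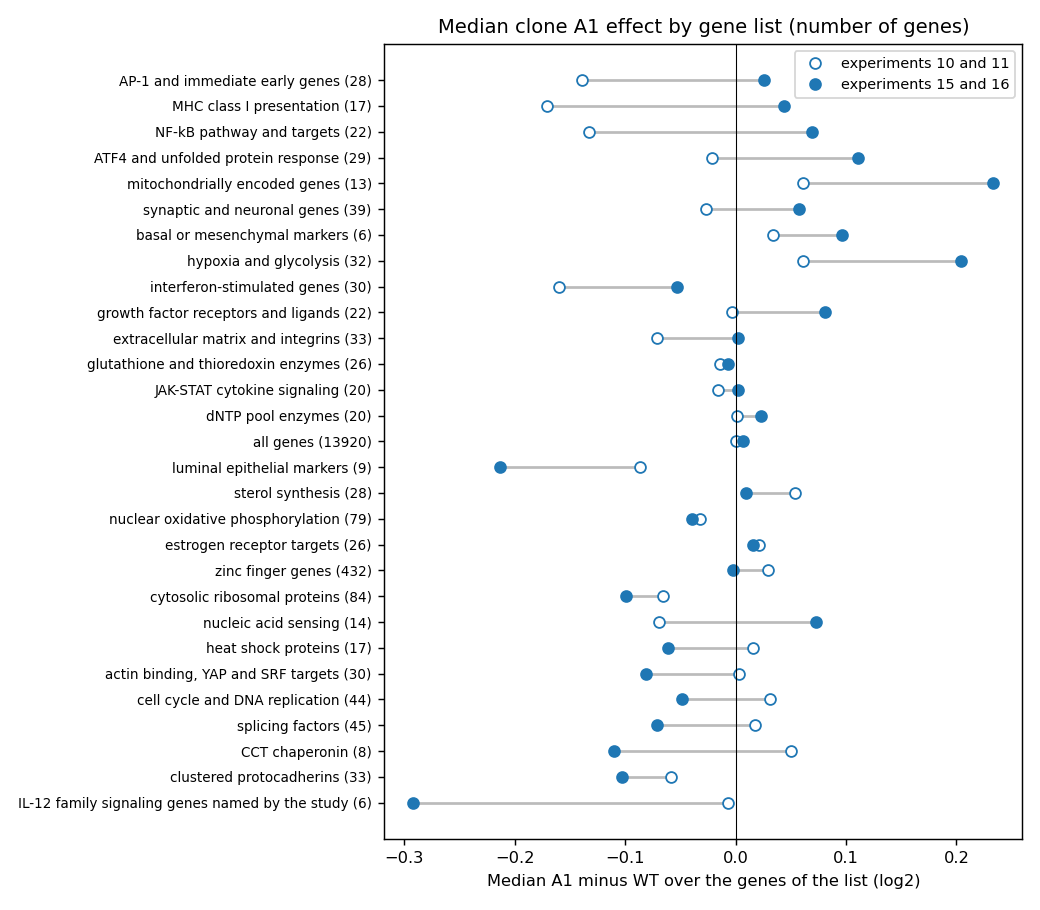
For each gene list with at least 5 listed genes, and for all genes, the median A1 minus WT (log2) is shown in experiments 10 and 11 (open circles) and in experiments 15 and 16 (filled circles). Medians of immediate early, MHC class I and NF-kB genes went from below 0 to above it, and those of the IL-12 family genes, CCT chaperonin and splicing factors moved downward, from -0.01 to -0.29 for the IL-12 family genes.

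Called genes were also counted along the chromosomes. Of 154 regions of 20 Mb with at least 20 genes, 17 had a median shift beyond 0.15 in size, 11 above and 6 below, and these held 82 of the 266 genes (30.8%) and 11.3% of all genes. The regions were picked by the shift of their own genes, so these shares are a description. Chromosome 13 between 60 and 80 Mb had 9 of 24 genes called (37.5%, against 1.91% of all genes), all upward, with a median shift of 0.49. There the genes rose in both genotypes, with a median change of 0.92 in WT and 1.45 in clone A1. SLAIN1, a microtubule-binding protein, was 25.6, 22.7, 42.6 and 48.7 CPM in WT and 24.7, 23.4, 80.3 and 79.3 CPM in clone A1. POU4F1, a transcription factor of sensory neurons, was 28.1, 28.8, 65.5 and 65.2 CPM in WT and 28.6, 27.0, 110 and 98.0 CPM in clone A1. In both, the genotypes overlapped early and were apart late, and clone A2 held 74.8 and 82.7 CPM of SLAIN1 and 90.3 and 94.4 CPM of POU4F1. Their shifts were 0.81 ± 0.13 and 0.70 ± 0.11 (edgeR adjusted p = 0.0033 and 0.00404), and COMMD6 (0.76 ± 0.12) and BORA (0.67 ± 0.15) of the same region went with them. The BORA call was lost in 8 of the 17 alternatives, among them the omission of any 1 clone A1 library, and with regional offsets the shifts came to 0.32 for SLAIN1, 0.22 for POU4F1, 0.28 for COMMD6 and 0.18 for BORA. These region genes, and those named for the regions of chromosomes 1, 9 and 19 other than LGALS8, were chosen after their values were seen.

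On chromosome 1 between 220 and 240 Mb, 20 of 108 genes were called (18.5%, against 1.91% of all genes), 19 of them downward. The median shift was -0.32, and 98 of the 108 estimates were negative. GNG4, a G protein gamma subunit, was 106, 98.0, 68.1 and 71.4 CPM in WT and 104, 111, 46.4 and 45.5 CPM in clone A1, a shift of -0.68 ± 0.11 (edgeR adjusted p = 0.0033). HEATR1, a ribosome biogenesis factor, shifted by -0.69 ± 0.13, and LGALS8, the lectin galectin 8 whose annotated span overlaps HEATR1, by -2.30 ± 0.37. The HEATR1 call was lost in 4 of the 17 alternatives, and with regional offsets GNG4 and HEATR1 shifted by -0.38 and -0.39. The GNG4 call was lost with these offsets too (edgeR adjusted p = 0.0662). LGALS8 was 0.885 and 0.457 CPM in late clone A1, 2.77 and 3.35 CPM in late WT and 6.46 and 6.89 CPM in clone A2, so the clones lay on opposite sides of WT. SUSD4, a complement regulator in the same region, went against its neighbours with a shift of 2.07 ± 0.35, a call lost without clone A1 of experiment 15 (adjusted p = 0.0519). On chromosome 9 between 120 and 140 Mb, 17 of 219 genes were called (7.76%, against 1.91% of all genes), all upward, with a median shift of 0.25. RNF208, NOXA1, AIF1L and TMEM141 were among them, with shifts of 0.78 ± 0.12, 0.70 ± 0.13, 0.62 ± 0.12 and 0.65 ± 0.13. RNF208 kept its call in all 17 alternatives, whereas NOXA1, AIF1L and TMEM141 lost theirs in 5, 6 and 5, and AIF1L and TMEM141 shifted by 0.40 and 0.43 with regional offsets. On chromosome 19 between 40 and 60 Mb, 10 of 388 genes were called (2.58%, against 1.91% of all genes) and the median shift was -0.07. NOVA2, a neuronal splicing factor, rose to 28.5 and 32.2 CPM in late clone A1 from 5.70 and 6.02 CPM, with 13.0 and 13.5 CPM in late WT.

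When the median level of each region was subtracted from its genes by an offset for every library, 185 genes were called, 161 of them among the 266. The 9 genes of chromosome 13 were all lost, and of the 20 genes on chromosome 1 and the 17 on chromosome 9 only 2 and 1 kept the call, against 9 of the 10 on chromosome 19. Each offset came from the region's own genes, so a loss of calls where many genes shifted together was largely built in. SAMHD1, CNN2, GHR, SNAI2, LTBR, C6orf132 and the 3 reversed genes were called with and without the offsets. Chromosome copy number in these cells was not measured, and its part in the regional shifts was not tested.

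**Figure D5:**
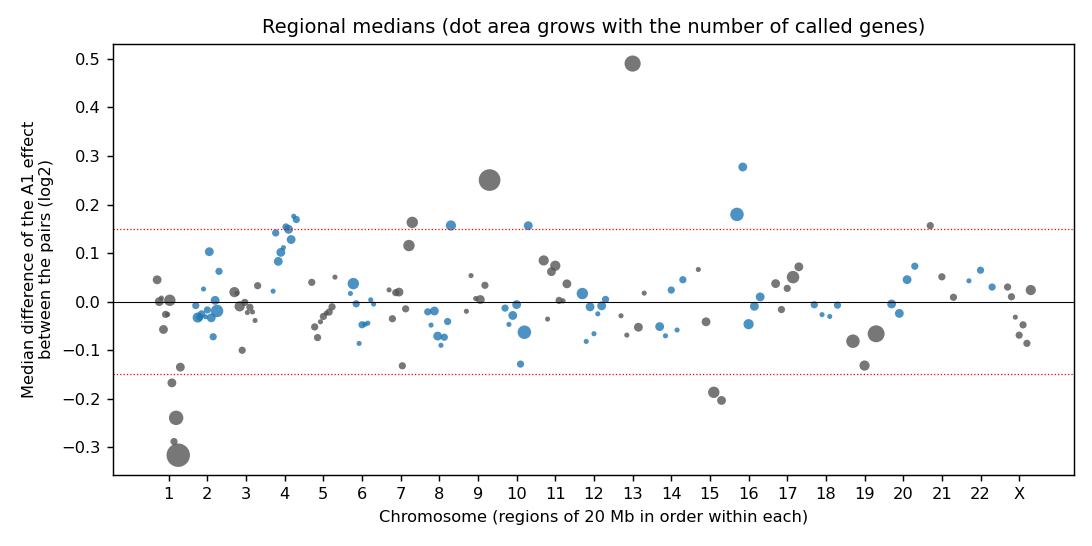
Each dot is a region of 20 Mb with at least 20 genes, in order along its chromosome on the horizontal axis, with the median shift of its genes (log2) on the vertical axis; dot area grows with the number of called genes, and dotted lines mark 0.15 and -0.15. The long arm of chromosome 1, chromosome 13 and chromosome 9 hold the largest dots beyond the lines, and all regions of chromosome 4 lie above 0.

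The called genes were expressed at a median of 19.2 CPM against 28.6 CPM for all genes, and 83 of them (31.2%) had a shift beyond 1 in size against 409 (2.94%) of all genes. Effects were also broader in the later pair as a whole: 204 genes had an A1 effect beyond 1 in size in experiments 15 and 16 and 106 in experiments 10 and 11, and the root mean square effect was 0.29 against 0.22. Between single libraries, clone A1 and WT of the same experiment differed by a root mean square of 0.27, 0.31, 0.34 and 0.33 in experiments 10, 11, 15 and 16, and replicates of 1 genotype and pair by 0.24 to 0.30.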

How the data were processed

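RNA-seq was performed on WT, clone A1 and clone A2 spheroids with a stranded poly(A) library kit. The authors aligned reads to GRCh38 with HISAT2 and quantified them with StringTie, per the labels, and deposited whole-number read counts for 13920 genes. Those counts were used as deposited. The counting program and its strand setting are not given in the sources used here. The smallest deposited count was 1, and 483 genes had a library with a count under 10. Gene identifiers were matched to RefSeq symbols (GRCh38.p14), which 13885 of the identifiers had.

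In R 4.3.3, edgeR 4.0.16 was run with TMM factors and the robust quasi-likelihood fit on 8 libraries in 4 cells of genotype by experiment pair, which left 4 residual degrees of freedom. The interaction contrast was (A1 - WT in experiments 15 and 16) - (A1 - WT in experiments 10 and 11), and the simple contrasts came from the same fit, with Benjamini-Hochberg adjustment over all genes and a threshold of 0.05. On simulated counts with known changes, this fit found 29 of 67 changed genes at a log2 shift of 0.5 and 64 of 67 at 1, with 10 false calls. The simulated libraries were independent and held no difference between experiments, so these numbers may not hold for the present libraries. Counts over 40077369 to 51311482 reads per library make counting error small except for genes at a few reads.

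Alternatives were DESeq2 1.42.0, limma 3.58.1 on log2 CPM, RLE factors, 2 filters on low counts, a replicate block, all 10 libraries, offsets for 20 Mb regions and the omission of each library. Named genes were SAMHD1, genes the study names, up to 5 genes of each kind and direction with the largest shift among called genes with a mean of at least 1 CPM in 1 cell and no overlap between the pairs, and up to 3 called genes of each list. Others are marked as chosen after their values were seen. The members and lists were chosen with earlier results of these data known. Some genes are not reported here. Of 266 called genes, 205 had a promoter in the table, too few for a summary over them, so promoters are given singly.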

Additional observations from a re-analysis of the deposited data

Results flagged for a closer look

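The A1 effect differed between the experiment pairs for 266 genes by the edgeR interaction test, and each named gene that passed it is given here with its shift, A1 minus WT in experiments 15 and 16 less the same in experiments 10 and 11, on the log2 scale. Downward shifts were -1.81 for SAMHD1, -1.11 for CNN2, -2.59 for GHR, -2.53 for ZNF660, -2.49 for BHLHE22, -2.35 for TMEM132B, -2.30 for LGALS8, -2.23 for SNAI2, -2.12 for ESRP2, -1.29 for CPS1, -1.58 for GNAO1, -1.23 for COL3A1, -1.85 for GRIA3, -1.39 for MGST1, -0.41 for CENPF, -0.42 for RPL4, -0.68 for GNG4, -0.69 for HEATR1, -0.63 for MAP2K6, -0.58 for RHOBTB3, -0.45 for NUCKS1, -0.44 for TIPRL, -0.40 for RIPK4, -0.84 for CAVIN1, -0.92 for LMCD1 and -0.95 for CRABP2.

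Upward shifts of appeared effects were 4.22 for RSPO4, 2.70 for LTBR, 2.49 for DLGAP1, 2.44 for PLAAT3, 2.12 for ZNF253, 1.22 for KIF1A, 1.62 for OAS3, 1.11 for EGR1, 1.48 for ANXA3, 0.96 for ENO2, 0.86 for SLC7A11, 0.47 for ITGA6, 0.75 for CNTNAP2, 0.61 for JAG2, 1.02 for LRP2, 1.54 for CAMK2B and 1.07 for NPNT. In the regions with many called genes they were 0.81 for SLAIN1, 0.76 for COMMD6, 0.70 for POU4F1, 0.67 for BORA, 1.33 for NOVA2, 2.03 for HSD17B14, 0.78 for RNF208, 0.70 for NOXA1, 0.62 for AIF1L, 0.65 for TMEM141 and 2.07 for SUSD4. Genes with a vanished effect shifted by 4.47 (C6orf132), 2.81 (ZNF28), 1.51 (MSH5), 0.92 (FOS) and 0.79 (CSRP1), those with a reversed effect by 1.82 (RASGEF1A), 1.37 (HES5) and 0.97 (EEF1A2), and CHODL by 2.55. Genes called in neither pair shifted by 2.47 (ZNF285), 1.55 (PNMA8B), 1.29 (RGS3), 1.22 (SLC2A10), 1.17 (FBXO27), 0.48 (HLA-B) and 1.16 (CXCL12). Dixon's test over the 4 libraries of a genotype marked 0 of 158 sets of values, where chance marks about 1 in 20. These sets join both pairs, so genes whose values split between the pairs could hardly be marked, and the count says little about single libraries.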

How the results depend on the processing

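Of 70 named genes past the interaction test, 33 were called under all 17 alternatives and 37 lost the call in at least 1. Of the 7 others, TCP1, GSTO1 and CXCL8 gained it with the replicate block, TCP1 and GSTO1 also with DESeq2 and without WT of experiment 10, TCP1 with regional offsets and with 10 libraries, and TYK2, TCP1 and CXCL8 without WT of experiment 11. Direction turned for 2 named genes, neither of them called for the interaction: ARF1 had a shift of 0.12 with regional offsets, with and without the replicate block, and IL12A of 0.025, 0.062 and 0.20 without clone A1 of experiment 10, clone A1 of experiment 16 and WT of experiment 11 (from -0.42 to 0.20 over single omissions).

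DESeq2 called 409 genes for the interaction, 158 of them downward, 45 for experiments 10 and 11, and gave 14 vanished, 7 reversed and 49 in neither pair. limma gave 1 changed in size. With 10 libraries 5 reversed and 42 were in neither pair. Regional offsets gave 151 appeared, 5 reversed, 52 downward and 675 genes in experiments 15 and 16, and raised the upward share of the 185 calls to 71.9% from 65.8%. The RLE factors and the filters on low counts moved none of the counts by over 1.5 times.

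Experiment numbers were shared by WT and clone A1. Deviations from the cell means correlated at 0.085 between genotypes in experiments 10 and 11 and at 0.13 in experiments 15 and 16. The replicate block gave 1081 genes for the interaction (603 upward, 478 downward; 55.8% upward), 298 for experiments 10 and 11, 2207 for experiments 15 and 16 and 3759 for WT between the pairs, with 785 appeared, 74 vanished, 34 reversed, 6 changed in size and 182 in neither pair. All 266 genes were among the 1081. Regional offsets with the replicate block gave 771 (465 upward, 306 downward), 235 and 3098 for WT between the pairs, with 507 appeared, 61 vanished, 29 reversed, 6 changed in size and 168 in neither pair. Around its own genotype's mean, which also carries the difference between the pairs, every library correlated best with the one of its own number, at 0.47 to 0.53.

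Leaving out each library in turn gave 70 to 1163 genes for the interaction, 43 to 602 upward, 24 to 561 downward, 10 to 1590 for experiments 10 and 11, 268 to 2040 for experiments 15 and 16, 612 to 3713 for WT and 3487 to 6360 for clone A1 between the pairs. The kinds ranged from 58 to 521 appeared, 2 to 410 vanished, 1 to 93 reversed, 1 to 6 changed in size and 3 to 133 in neither pair. The highest of these came without WT of experiment 10, except for experiments 15 and 16 and for clone A1, where they came without WT of experiment 11. A lone library was then assumed to vary like the others. The cause was not tested.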

Other observations

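Further genes among the 266 were looked at after their values were seen. A caveolar coat protein, a LIM-domain cofactor and a retinoic acid carrier shifted downward. CAVIN1, a coat protein of caveolae, was 39.9, 39.2, 26.2 and 28.6 CPM in WT of experiments 10, 11, 15 and 16 and 42.3, 43.9, 16.3 and 17.1 CPM in clone A1, a shift of -0.84 ± 0.12 (edgeR adjusted p = 0.00119). LMCD1, a LIM-domain cofactor, was 21.8, 21.6, 19.8 and 19.5 CPM in WT and 23.5, 22.2, 10.8 and 11.1 CPM in clone A1. CRABP2, which carries retinoic acid to its receptor, was 18.1, 15.9, 16.2 and 15.5 CPM in WT and 13.5, 14.3, 7.30 and 6.14 CPM in clone A1, a shift of -0.95 ± 0.16. For CAVIN1 and LMCD1 the clone A1 libraries were above WT early and below it late, whereas CRABP2 was below WT throughout.

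Upward shifts were found for LRP2, the endocytic receptor megalin, for NPNT, a matrix ligand of integrins, and for CAMK2B, a calmodulin-dependent kinase of neurons. LRP2 was 9.004, 7.29, 20.4 and 19.98 CPM in WT and 8.01, 8.09, 40.6 and 40.6 CPM in clone A1, a shift of 1.02 ± 0.15 (edgeR adjusted p = 0.00161). NPNT was 9.07, 9.64, 17.4 and 17.6 CPM in WT and 8.11, 8.02, 31.5 and 31.9 CPM in clone A1. Both genes rose between the pairs in WT and more so in clone A1, and LRP2 in clone A2, at 46.8 and 47.9 CPM, lay above both. CAMK2B was 5.86, 5.07, 7.57 and 5.92 CPM in WT and 4.59, 4.08, 16.2 and 14.9 CPM in clone A1, a shift of 1.54 ± 0.20 (edgeR adjusted p = 0.000622). JAG2, a ligand of Notch receptors, shifted by 0.61 ± 0.11, and its call was lost without clone A1 of experiment 11 or 16, with edgeR adjusted p = 0.0639 and 0.0523.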
